A study of Mus musculus with 40 samples.

Results

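DNA methylation was described at 8 loci that carry genes for transcription factors of blood stem cells and of blood lineages other than B cells: Meis1, Tal1, Lmo2, Gata2, Runx1, Spi1, Cebpa and Gata3. The members are all 100 bp tiles of the methylation table that fall in a fixed window around each gene in the mouse build mm9. The windows are chr11:18770000-18930000 for Meis1, chr4:114710000-114760000 for Tal1, chr2:103780000-103840000 for Lmo2, chr6:88130000-88170000 for Gata2, chr16:92590000-92840000 for Runx1, chr2:90900000-90970000 for Spi1, chr7:35890000-35950000 for Cebpa and chr2:9770000-9830000 for Gata3. They hold 879 of the 971845 tiles listed, and 794 of them have a value in at least 1 library. The 316 tiles with a value in at least 2 of the 3 libraries of every group were tested, among 200813 autosomal tiles that met this condition.

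The study profiled pro-B cells, an early B-cell precursor stage, and follicular B cells, a mature resting stage, from C57/bl mice by reduced representation bisulfite sequencing (RRBS). Each stage had 3 libraries of each of 4 genotypes: wild type (WT), Tet2 knockout (Tet2KO), Tet3 knockout (Tet3KO) and knockout of both genes (DKO). The knockouts were inducible and driven from the MB1 promoter, which is active in the B lineage from its early stages. The labels give ages of 6 and 8 weeks for WT and Tet2KO, 7 weeks for Tet3KO, and 6 and 7 weeks for DKO, with the same ages and sexes in both stages. The 6 Tet2KO libraries were from females and the other genotypes were from both sexes. Neither the purity of the cells nor a separate mouse for each library is stated in the labels, so p-values here measure only the spread between these libraries. Libraries are called by their number: pro-B WT 1 to 3, Tet2KO 4 to 6, Tet3KO 7 to 9 and DKO 10 to 12, then follicular WT 13 to 15, Tet2KO 16 to 18, Tet3KO 19 to 21 and DKO 22 to 24.

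TET2 and TET3 are enzymes that oxidise 5-methylcytosine, a step by which methyl groups are removed from DNA, and bisulfite sequencing reads 5-methylcytosine and its hydroxymethyl form alike. Blood stem cells express factors such as Meis1, Tal1, Lmo2, Gata2 and Runx1, while Spi1 and Cebpa act in myeloid cells and Gata3 in T cells. Most of these genes are turned down as B cells are made, Runx1 and Spi1 remain in use in B-lineage cells, and several of them lie in CpG islands, which are usually unmethylated whether or not the gene is expressed.

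The promoters of the 3 loci at which tiles changed between the stages, as described further on, are given with their CpG and CCGG counts. RRBS usually cuts DNA at CCGG, a palindrome that reads the same on both strands and that holds 1 CpG, and reads the ends of the fragments. The sequences are from RefSeq in build GRCm38.p6 and run 5′ to 3′ from 250 bases before to 50 bases after a gene start, with every CpG in capitals. Their positions are not comparable with the mm9 positions of the tiles, and tiles were not placed on them.
Meis1 promoter, chr11:19018920-19019219, minus strand: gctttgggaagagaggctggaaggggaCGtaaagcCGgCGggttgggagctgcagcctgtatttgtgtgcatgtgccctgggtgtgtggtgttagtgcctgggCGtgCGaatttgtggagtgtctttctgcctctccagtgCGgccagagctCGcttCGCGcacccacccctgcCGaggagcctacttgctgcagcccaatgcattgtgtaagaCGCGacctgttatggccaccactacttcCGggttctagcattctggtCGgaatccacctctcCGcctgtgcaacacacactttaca
Gata2 promoter, first entry, chr6:88193641-88193940, plus strand: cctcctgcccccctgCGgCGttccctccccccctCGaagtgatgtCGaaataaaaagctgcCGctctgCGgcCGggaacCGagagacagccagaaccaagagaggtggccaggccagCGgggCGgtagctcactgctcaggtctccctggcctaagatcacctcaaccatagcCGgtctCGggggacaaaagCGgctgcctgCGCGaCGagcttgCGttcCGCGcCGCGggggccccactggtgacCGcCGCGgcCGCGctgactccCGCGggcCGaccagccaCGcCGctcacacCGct
Runx1 promoter, first entry, chr16:92826025-92826324, minus strand: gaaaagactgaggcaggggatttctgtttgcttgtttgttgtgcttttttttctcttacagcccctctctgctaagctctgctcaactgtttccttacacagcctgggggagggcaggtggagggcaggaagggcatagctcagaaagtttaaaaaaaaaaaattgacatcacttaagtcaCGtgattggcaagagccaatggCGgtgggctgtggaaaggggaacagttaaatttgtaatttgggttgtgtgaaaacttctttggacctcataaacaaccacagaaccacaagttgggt
Runx1 promoter, second entry, chr16:92697280-92697579, minus strand: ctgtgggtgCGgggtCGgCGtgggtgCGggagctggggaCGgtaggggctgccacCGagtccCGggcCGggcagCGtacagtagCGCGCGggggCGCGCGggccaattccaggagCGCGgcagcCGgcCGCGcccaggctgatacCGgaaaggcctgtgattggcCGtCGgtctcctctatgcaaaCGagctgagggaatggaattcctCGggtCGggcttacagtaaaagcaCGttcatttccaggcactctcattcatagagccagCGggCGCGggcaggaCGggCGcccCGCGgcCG
The Runx1 entries differed most: the first held 2 CpGs and no CCGG, and the second 35 CpGs and 4 CCGGs. The Meis1 promoter held 15 CpGs and 2 CCGGs, and the first Gata2 entry 32 CpGs and 2 CCGGs. A second Gata2 entry, not shown, held 29 CpGs and 3 CCGGs. Of 32851 RefSeq promoter windows of this length 52.8% held CCGG and the median had 7 CpGs. RefSeq entries matched 6 of the 8 loci.

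Libraries differed in the number of tiles with a value, from 24600 in library 8 to 631415 in library 5. The follicular libraries ranged from 411441 to 608149 tiles and the pro-B libraries other than library 8 from 273728 to 631415. The part of this difference in the results was not tested. Library 8 had a value at 34 of the 316 tested tiles and was not used for means over a locus. The table gives methylation levels without read counts, so depth is unknown, and single tiles listed at 0% or 100% may have had few reads. The share of tiles tested differed between loci, from 13 of 94 listed at Spi1 to 74 of 140 at Meis1 and 67 of 141 at Gata3.

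Most tested tiles of these loci were nearly unmethylated in both stages and all genotypes. Over all libraries 244 of the 316 tiles (77.2%) had a mean level under 20%, 37 lay from 20 to 80% and 35 were over 80%, against 55.5%, 11.6% and 32.9% of all 200813 tested tiles. Meis1 (70 of 74), Gata3 (61 of 67), Cebpa (20 of 22) and Tal1 (18 of 21) had the largest shares of low tiles. Gata2 stood apart by its intermediate tiles, 18 of 55 (32.7%), and Runx1 by its methylated tiles, 19 of 47 (40.4%). The classes were a description of the levels, and the difference from other tiles was not tested.

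**Figure D1:**
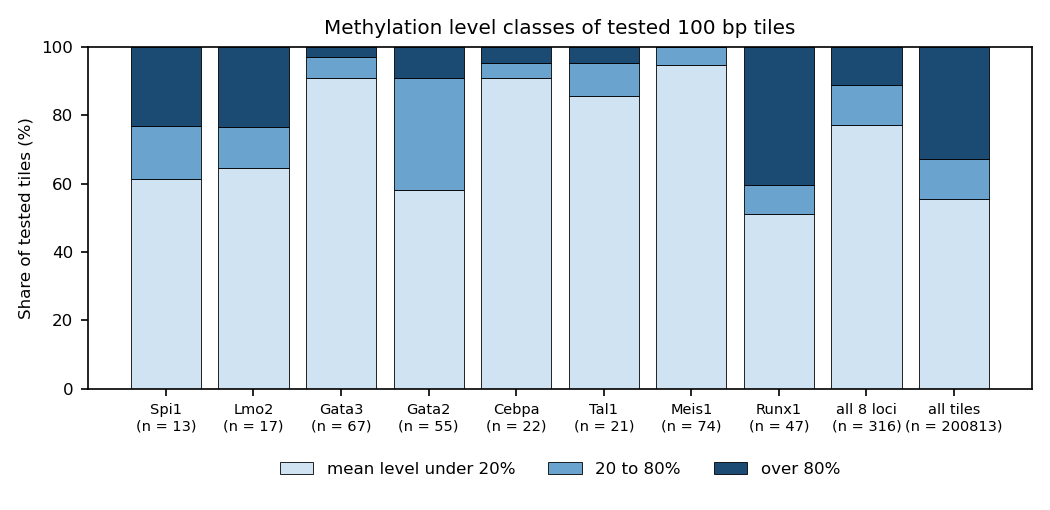
Share of tested 100 bp tiles (y axis, %) whose mean level over all libraries was under 20%, from 20 to 80% or over 80%, for each locus, all 8 loci and all 200813 tested tiles. Gata2 has the widest intermediate band (32.7%) and Runx1 the widest band over 80% (40.4%).

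Between the stages, follicular cells were more methylated than pro-B cells at parts of Meis1 and Gata2 and less methylated at a stretch of Runx1. A tile was called changed where limma gave a Benjamini-Hochberg adjusted p under 0.05 over all 200813 tiles and a difference between group means of 20 percentage points or more. Over all genotypes together, a comparison added after the data had been seen, 3 of the 316 tiles were called higher in follicular cells, against 0.848% of all tiles, and 1 was called lower, against 0.0911%. The share called higher at these loci, 0.949%, was near that of all tiles, and the share called lower, 0.316%, was a single tile. At a threshold of 10 points 8 tiles were higher, against 1.45% of all tiles, and 3 were lower, against 0.317%. The median difference over the 316 tiles was 0.512 points, and over all tiles 0.187 points.

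Within single genotypes few stage differences passed the test. In WT 1 tile, at Meis1, was called higher in follicular cells, against 0.133% of all tiles, and no tile was called lower by limma, against 0.0473%, with 39 tiles of 316 at an unadjusted p under 0.05 (12.3%, against 8.5% of all tiles). In Tet3KO 1 tile, at Runx1, was called higher, against 0.379% of all tiles, and none lower, against 0.0378%. In Tet2KO and DKO no tile was called by limma in either direction, and 25 and 41 tiles had an unadjusted p under 0.05 (7.91% and 13%, against 5.96% and 9.76% of all tiles). The background of calls was 0.0364% higher and 0.0199% lower in Tet2KO and 0.139% higher and 0.0294% lower in DKO. The 3 follicular libraries lay entirely above the 3 pro-B libraries at 45 of 296 tiles in Tet2KO (15.2%, against 6.72% of all tiles), at 29 of 262 in DKO (11.1%, against 6.65%) and at 28 of 263 in WT (10.6%, against 9.28%). Tiles with the reverse order numbered 7, 3 and 9, against 4.09%, 3.69% and 4.85% of all tiles. In Tet3KO only 31 tiles had a value in library 8 and the other 5 libraries, and 5 of them were higher and 0 lower, against 9.13% and 1.67%.

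Meis1 encodes a homeodomain factor of blood stem cells, and its mean over the window was the only one of the 8 at which the stages did not overlap. The mean over 56 tiles with a value in all libraries but library 8 was 1.90, 2.21 and 1.90% in pro-B WT, 2.85, 1.76 and 1% in Tet2KO, 2.49 and 1.65% in Tet3KO, and 0.982, 0.548 and 1.32% in DKO. In follicular cells it was 3.97, 4.69 and 4.52% in WT, 4.72, 3.91 and 5.15% in Tet2KO, 5.80, 4.13 and 3.74% in Tet3KO, and 3.68, 4.19 and 4.32% in DKO. All 12 follicular libraries lay above all 11 pro-B libraries. The 56 tiles include some described below with far larger differences in the same direction, so the mean and those tiles are not separate results. Over all genotypes these were 29.5 points at chr11:18909601-18909700, 20 at chr11:18914201-18914300 and 15.7 at chr11:18785901-18786000. The median over the 74 tested Meis1 tiles was 0.83 points. The stage difference was 2.39 ± 0.241 points (SE, n = 3 and 3) for WT, 2.72 ± 0.649 for Tet2KO, 2.49 ± 0.760 for Tet3KO (n = 3 and 2) and 3.11 ± 0.297 for DKO. An exact two-sided permutation test gave 0.1 for each, which is the smallest p that these group sizes can give, and 0.364 after adjustment over the 80 locus means compared. With each library centred on the mean of all tested tiles the differences stayed above 0 in each genotype. They ran from 0.446 in Tet3KO to 1.98 in Tet2KO. Centring subtracted a mean stage difference of 1.26 points over all tested tiles, while the median over those tiles was 0.187 points.

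Both Meis1 tiles called over all genotypes lay in the later part of the window. At chr11:18907801-18907900 the level ran from 2.94 to 38.2% in 10 pro-B libraries (median 19.3%) and from 40 to 69.2% in 12 follicular libraries (median 49.2%), without overlap. The difference was 31.5 ± 5.44 points (SE; limma adjusted p = 0.0041). It was above 0 in each genotype, 41.1 points for WT, 23 for Tet2KO, 36.2 for Tet3KO and 25.9 for DKO, none of which passed the test alone (limma adjusted p from 0.194 to 0.792).

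At the other called Meis1 tile the levels varied between genotypes, but no difference between a knockout and WT passed the test. At chr11:18909601-18909700 pro-B WT libraries were at 58.8, 35.8 and 50.8%, Tet2KO at 55.6, 15.9 and 0%, Tet3KO at 37.4 and 27.8%, and DKO at 6.67, 0 and 0%. The 12 follicular libraries ran from 42.9 to 69.8%, with a median of 53.9%. The groups overlapped in WT, where the stage difference was 0.902 points, and did not in DKO, where it was 51.6 ± 11.3 points (limma adjusted p = 0.0588). Fitted among the 66504 joined regions, as a region of 1 tile, it was the only one of 58 regions called in DKO (limma adjusted p = 0.0399), against 0.232% of all regions. No region was called in DKO when any one of libraries 11, 12, 22, 23 or 24 was left out. Over all genotypes it was 29.5 ± 5.81 points (limma adjusted p = 0.00884). The pro-B DKO libraries lay below the pro-B WT libraries by 46.2 points (SE 11.3, limma adjusted p = 0.114). The difference of the stage differences between DKO and WT was 50.7 ± 15.9 points (limma adjusted p = 0.639), so it did not pass the test over all tiles.

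A run of 18 joined tiles at chr11:18914101-18916800 was low in both stages and lower in pro-B cells. The mean over the run was 0 to 3.57% in 12 pro-B libraries (median 0.977%) and 3.60 to 7.11% in 12 follicular libraries (median 5.43%), without overlap. The difference was 4.08 ± 0.464 points (limma over 66504 joined regions, adjusted p = 4.04e-05), below the 20 points needed for a call. The 3 tiles with the largest differences stood at the start of the run. At chr11:18914301-18914400 WT was at 0, 12.1 and 0% in pro-B and 20.9, 29.1 and 23.3% in follicular cells, which gave the WT call of 20.4 ± 3.91 points (limma adjusted p = 0.0354). This call was lost when any of libraries 1, 3, 14 or 15 was left out, at 18.1 to 21 points, and the difference over all genotypes there was 12.5 ± 2.02 points. At chr11:18914201-18914300 the difference was 26.7 ± 5.75 points in WT (limma adjusted p = 0.0655) and 20 ± 2.96 over all genotypes, just under the threshold. Far from this run, at chr11:18785901-18786000, follicular libraries were at 6.25 to 36% (median 18%) and pro-B libraries at 0 to 21.2% (median 0%), a difference of 15.7 ± 3.20 points (limma adjusted p = 0.0112).

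Another run of 18 tiles, at chr11:18918301-18920800, had means of 0 to 1.08% over all 24 libraries. Of the 74 Meis1 tiles 58 (78.4%) had a higher mean in follicular cells over all genotypes, against 61.7% of all tiles, and the median difference was 0.83 points. The share was higher still at Lmo2 (15 of 17, 88.2%, median 1.31 points) and Gata3 (55 of 67, 82.1%, median 0.739 points).

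**Figure D2:**
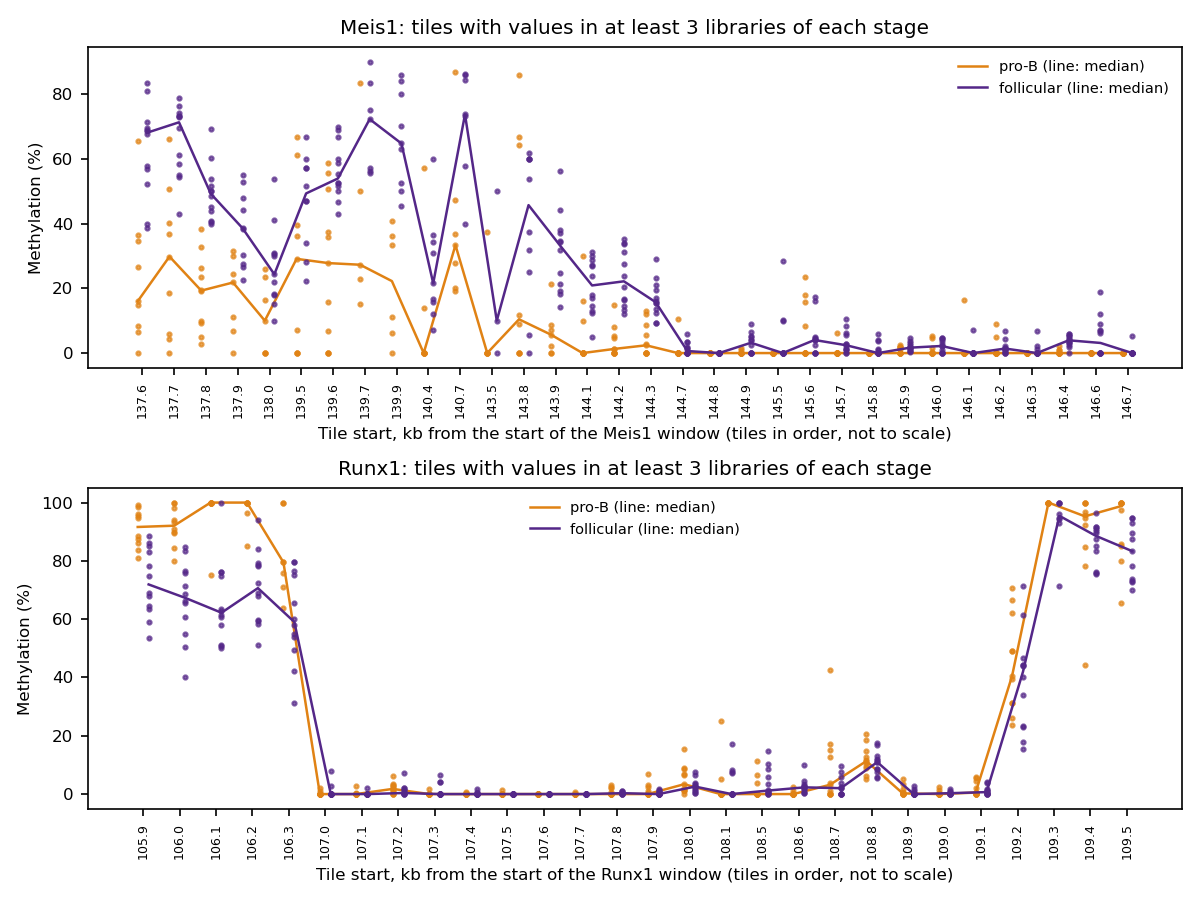
Methylation level (y axis, %) of tiles in order along part of the Meis1 window (above) and the Runx1 window (below), including untested tiles where each stage had 3 or more libraries with a value. Points are libraries, lines are medians of each stage; the follicular line lies above the pro-B line across the Meis1 stretch and below it at the left end of the Runx1 stretch.

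Runx1 encodes a runt-domain factor needed to form blood stem cells, and among the 316 tested tiles it held the only one called less methylated in follicular than in pro-B cells. At chr16:92696001-92696100 the level ran from 80 to 100% in 10 pro-B libraries (median 92.1%) and from 40.3 to 84.7% in 12 follicular libraries (median 67.3%). The difference was -25.4 ± 4.44 points (limma adjusted p = 0.00451). The stages overlapped only through 2 follicular DKO libraries at 83.5 and 84.7%. By genotype it was -29.1 points for WT, -28.2 for Tet2KO, -35.6 for Tet3KO and -8.78 for DKO. The difference between the DKO and WT values, 20.4 ± 12.6 points, did not pass the test (limma adjusted p = 0.884).

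The tile beside it showed the same order. At chr16:92695901-92696000 the levels were 81.1 to 99.1% in pro-B and 53.7 to 88.5% in follicular libraries, a difference of -18.2 ± 4.31 points (limma adjusted p = 0.0295). Joined, the pair differed by -21.8 ± 4.04 points (limma adjusted p = 0.00405). About 1 kb further along, at chr16:92697001-92699600, a run of 22 tiles had means of 2.4 to 14% in the 23 libraries with a value, so the stretch that differed lay beside a lowly methylated run.

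Elsewhere in the Runx1 window a region of 3 tiles at chr16:92783801-92784100 was higher in follicular cells. Its mean ran from 0 to 51.2% in 12 pro-B libraries (median 18.6%) and from 24.5 to 76.9% in 12 follicular libraries (median 41.1%), which overlapped, and the difference was 21.2 ± 5.21 points (limma adjusted p = 0.0204). Over all genotypes 3 joined regions of 58 were called higher, against 1.13% of 66504 regions, and 1 lower, against 0.105%. The other 2 higher regions were the single Meis1 tiles already given. In Tet3KO alone the 3-tile region was also called, at 44.1 ± 10.4 points (limma adjusted p = 0.0416), as 1 of 58 regions, against 0.765% of all regions. Its pro-B side was at 23.2, 0 and 4.55%, where the 0% was library 8. No region of these loci was called in Tet3KO without any one of libraries 8, 9, 19 or 20, or with tile means removed.

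The Tet3KO tile call, at chr16:92614901-92615000, rested on libraries 7 and 9 at 69.6 and 28.3%, against 97.0, 98.4 and 94.9% in follicular Tet3KO. The difference was 47.8 ± 9.35 points (limma adjusted p = 0.0269), and without library 9 it was 27.2 points and not called. Without any of the 3 follicular Tet3KO libraries the call was also lost, at 47.0 to 48.8 points. At this tile libraries 1 and 8 had no value, and the other libraries of both stages, those 2 pro-B Tet3KO libraries aside, lay from 69.4 to 100%.

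Gata2 encodes a zinc-finger factor of blood stem and mast cells, and its window held many intermediate tiles. At chr6:88152501-88152600 pro-B libraries were at 22.7, 8.70 and 10.3% in WT, 6.78, 14.3 and 2.86% in Tet2KO, 0 and 0% in Tet3KO, and 15.7 and 20% in DKO. Follicular libraries were at 23.1, 34.9 and 36.1% in WT, 40, 23.6 and 18.8% in Tet2KO, 33.8, 41.5 and 13.3% in Tet3KO, and 58.6, 55.6 and 43.5% in DKO. Within each genotype every follicular library lay above every pro-B library. The stage difference was 25.3 ± 4.08 points over all genotypes (limma adjusted p = 0.00252). The 3 follicular DKO libraries also lay above the 3 follicular WT libraries, by 21.2 ± 7.69 points, which did not pass the test over all tiles (limma adjusted p = 0.541).

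A further Gata2 tile rose by less than 20 points. At chr6:88150401-88150500 pro-B libraries ran from 20 to 72.9% (n = 11) and follicular libraries from 56.1 to 80.3% (n = 12), with overlap. The difference was 18.2 ± 4.71 points (limma adjusted p = 0.0429). It lay in the longest Gata2 run, 29 tiles at chr6:88146301-88150700, which had group means from 17.3 to 21.3% in pro-B and from 21.6 to 23.4% in follicular cells. The difference over the run was 2.88 ± 1.10 points (limma adjusted p = 0.136).

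**Figure D3:**
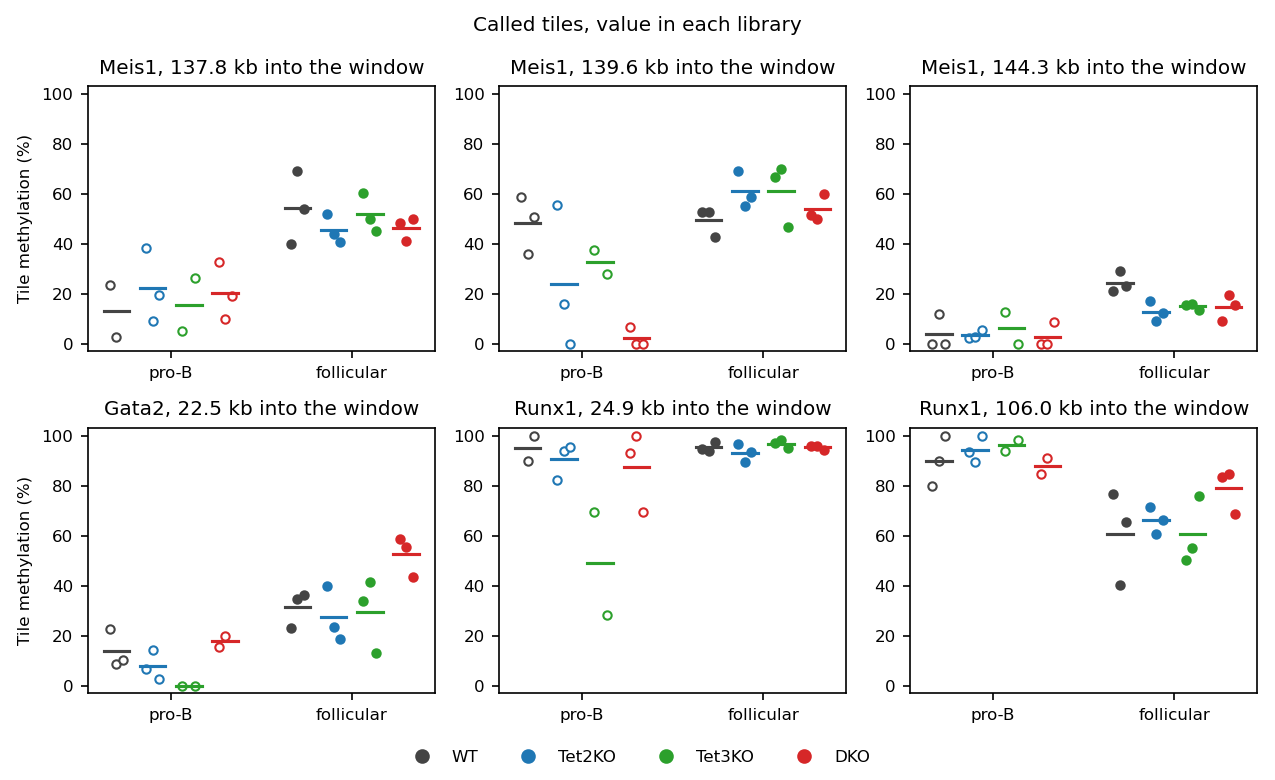
Methylation level (y axis, %) in each library at the 6 tiles called in any comparison, by stage and genotype; points are libraries and bars are group means. Pro-B DKO is near 0% at the second Meis1 tile, and at the first Runx1 tile the lowest library, at 28.3%, is pro-B Tet3KO.

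At Tal1, Lmo2, Spi1, Cebpa and Gata3 no tile was called between stages over all genotypes. Tal1 encodes a basic helix-loop-helix factor of blood stem and erythroid cells, and its mean over 13 tiles was 0.0499 to 1.03% in pro-B and 0.249 to 1.48% in follicular libraries. Lmo2 encodes a bridging protein of complexes with Tal1 and Gata factors, and its mean over 12 tiles was 13.1 to 17% in pro-B and 15 to 19.4% in follicular libraries. The stages overlapped at both loci.

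A methylated stretch of Lmo2 differed without passing the test. At chr2:103797701-103798000 a region of 3 tiles had a mean of 44.9 to 92.7% in 9 pro-B libraries (median 60.8%) and 63.8 to 91.0% in 12 follicular libraries (median 82.3%). The difference was 16.1 ± 5.39 points and did not pass the test (limma adjusted p = 0.0963). A run of 9 tiles at chr2:103810601-103811500 was nearly unmethylated and rose slightly, from means of 0 to 1.64% in pro-B to 0.673 to 5.43% in follicular libraries, by 1.35 ± 0.348 points (limma adjusted p = 0.0261). Its highest libraries were 2 of follicular DKO, at 5.43 and 4.56%.

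Spi1 encodes PU.1, a factor that directs myeloid and early lymphoid development. Its 5 tiles with a value in all libraries but library 8 had means of 0 to 0.335% in all 23 libraries, and a region of 3 tiles at chr2:90903301-90903600 had means of 92.6 to 100% in the 22 libraries with a value. Cebpa encodes a factor of granulocytes and macrophages. Its run of 18 tiles at chr7:35903401-35906000 had means of 0 to 3.44% over all 24 libraries, where the 0% was library 8. A methylated Cebpa tile, chr7:35922301-35922400, was lower in follicular cells by 13.1 ± 3.31 points (limma adjusted p = 0.0379). Its levels were 65.3 to 100% in 11 pro-B libraries and 59.4 to 87.5% in 12 follicular libraries, with overlap. Gata3 encodes a zinc-finger factor of T cells. Its runs of 19 and 28 tiles at chr2:9798301-9801500 and chr2:9802101-9806300 had means of 0.19 to 7 and of 2.42 to 7.79% in the libraries with a value. The WT stages did not overlap at the single tile chr2:9807101-9807200, where pro-B was at 0, 0 and 15.2% and follicular at 52.9, 42.3 and 41.7%. That difference of 40.6 ± 13.5 points did not pass the test (limma adjusted p = 0.328), and the tile was picked for its size.

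**Figure D4:**
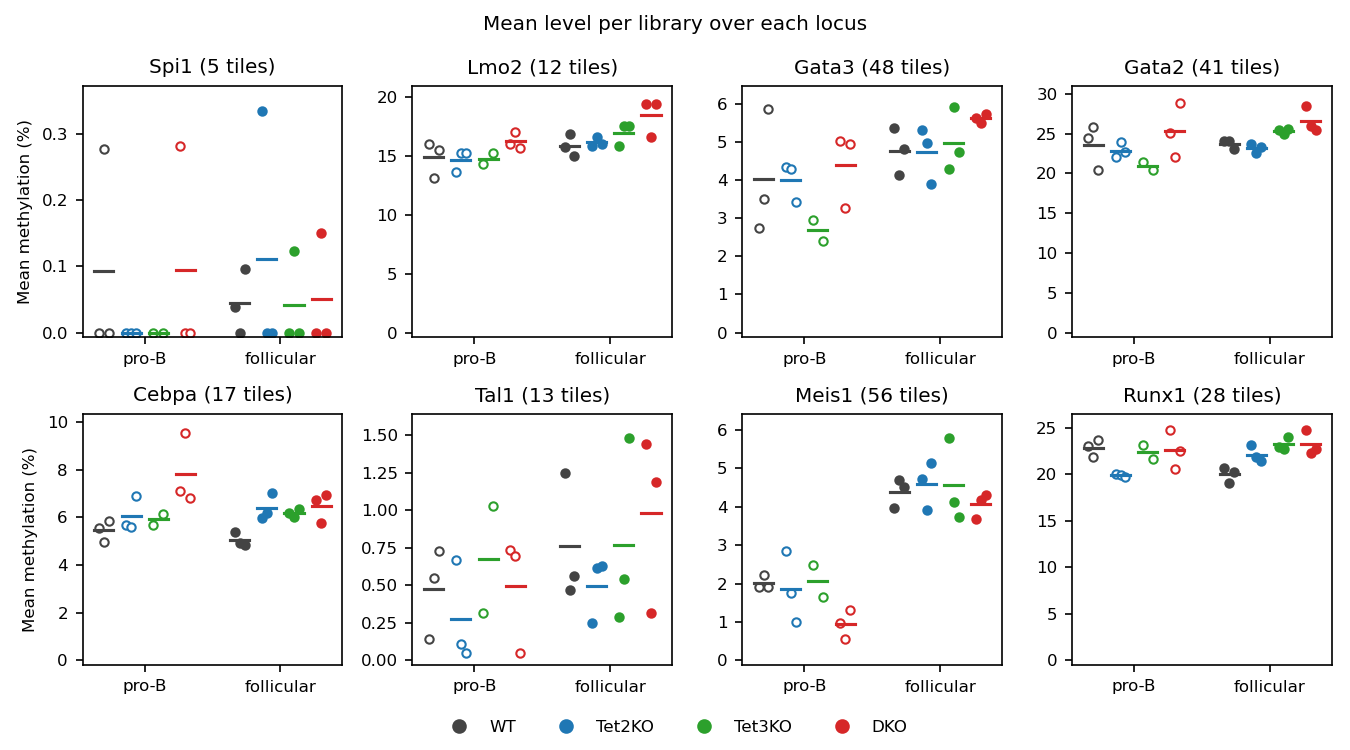
Mean methylation level (y axis, %) over the tiles of each locus with a value in all libraries but library 8, by stage and genotype; points are libraries, bars are group means, and each panel has its own scale. Meis1 is the locus at which all follicular libraries (3.68 to 5.80%) lie above all pro-B libraries (0.548 to 2.85%).

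Loss of Tet2, Tet3 or both was compared with WT within each stage, and no tile of the 8 loci was called in any of these 6 comparisons. In follicular DKO against WT the background was 0.128% of all tiles higher and 0.000996% lower. In follicular Tet2KO it was 0.00299% and 0%, and in follicular Tet3KO 0.00996% and 0%. In pro-B cells it was 0.187% and 0.0438% for DKO, 0.0558% and 0.0129% for Tet2KO, and 0.164% and 0.257% for Tet3KO. With shares this small, 0 of 316 tiles is near the background. At an unadjusted p under 0.05 limma gave 32 tiles for follicular DKO (10.1%, against 5.82% of all tiles), 12 for follicular Tet2KO (3.8%, against 2.87%) and 19 for follicular Tet3KO (6.01%, against 3.96%). In pro-B cells it gave 25 for DKO (7.91%, against 8.83%), 24 for Tet2KO (7.59%, against 6.76%) and 27 for Tet3KO (8.54%, against 10.3%). The 32 follicular DKO tiles were not spread evenly. Lmo2 held 8 of them, of its 17 tested tiles (47.1%), and the shares at the other loci ran from 1.82% at Gata2 to 14.9% at Runx1. The 95% interval of the follicular DKO difference was not adjusted for the number of tiles. It reached a median of 17.6 points to either side at the 72 tiles with a mean level of 20% or more. At the 244 lower tiles it reached 2.91 points. Differences smaller than these were mostly not detectable even without adjustment. A call needed an adjusted p under 0.05 over all tested tiles and a difference of 20 points or more. Larger differences than these could therefore also go uncalled, and the absence of calls does not exclude them.

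The change of the stage difference between DKO and WT and the DKO difference over both stages, the latter added after the data had been seen, also gave no call by limma at these loci. The background was 0.0134% higher and 0.0154% lower for the former and 0.248% and 0.00498% for the latter, and 21 and 23 tiles had an unadjusted p under 0.05 (6.65% and 7.28%, against 5.52% and 7.95% of all tiles). At 10 points the count over both stages was also 0, against 0.303% higher and 0.0144% lower.

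The 3 follicular DKO libraries lay above the 3 WT libraries at 17 of 296 tiles (5.74%, against 6.99% of all tiles) and below them at 7 (2.36%, against 2.44%). The counts were 14 above and 11 below of 304 for follicular Tet2KO, against 4.6% and 2.78%, and 16 and 7 of 287 for follicular Tet3KO, against 5.82% and 2.38%. In pro-B cells they were 9 and 5 of 241 for DKO, against 3.72% and 1.36%, 5 and 5 of 257 for Tet2KO, against 3.84% and 2.15%, and 0 and 1 of 31 for Tet3KO, against 1.4% and 1.53%. Most of these shares were near those of all tiles. Pro-B Tet2KO tiles above WT had a lower share, 1.95% against 3.84%. Pro-B DKO tiles below WT had a higher one, 2.07% against 1.36%. Each rested on 5 tiles, and the pro-B Tet3KO share below WT, 3.23% against 1.53%, on 1 tile.

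Tiles higher in follicular DKO by at least 10 points were 12 of the 72 tiles at 20% or more (16.7%, against 9.79% of all such tiles) and 5 of the 244 tiles under 20% (2.05%, against 2.76%). Tiles lower in follicular DKO by as much were 2 of the 72 (2.78%, against 2.86%) and 4 of the 244 (1.64%, against 0.479%). Runx1 was the locus with the largest share of tiles above WT, 37 of 47 (78.7%, against 52.7% of all tiles), with a median difference of 2.63 points, against 0.106 points over all tiles. At Meis1 31 tiles were above and 31 below, with a median of 0.

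**Figure D5:**
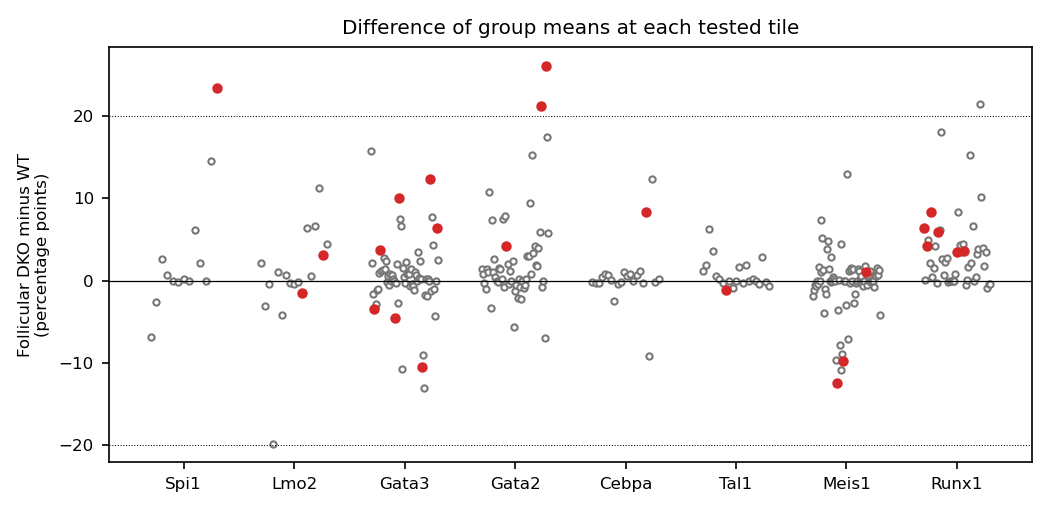
Follicular DKO minus WT difference of group means (y axis, percentage points) at each of the 316 tested tiles, by locus; filled red points are tiles whose 3 DKO and 3 WT libraries do not overlap, and dotted lines mark 20 points. At Runx1 37 of 47 points lie above 0, and at Meis1 31 of 74.

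The tiles with the largest follicular DKO differences among those without overlap were at Gata2 and Spi1. At chr6:88154601-88154700 of Gata2 WT was at 51.2, 43.3 and 48.8% and DKO at 93.1, 59.2 and 69.3%, a difference of 26.1 ± 18.9 points (limma adjusted p = 1). At chr2:90953501-90953600 of Spi1 WT was at 56.4, 55.4 and 53.6% and DKO at 81.5, 64.8 and 89.3%, a difference of 23.4 ± 9.71 points (limma adjusted p = 0.703). These tiles were picked for the values given. The pro-B cells of the Spi1 tile were at 20 and 55.6% in WT and 79.2, 57.5 and 100% in DKO, also without overlap. Over both stages the difference was 32.3 ± 7.28 points (limma adjusted p = 0.0829). In a wider tile set, chosen after the data had been seen, this Spi1 tile was called (32.3 ± 7.75 points, limma adjusted p = 0.0408). That set needed a value in at least 1 library of each group compared.

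At the other loci such tiles differed less. The difference was 12.3 ± 3.27 points at chr2:9811001-9811100 of Gata3, 8.38 ± 6.06 at chr7:35905901-35906000 of Cebpa, 8.31 ± 3.60 at chr16:92644901-92645000 of Runx1 and 3.12 ± 1.35 at chr2:103834001-103834100 of Lmo2. It was -12.4 ± 6.21 at chr11:18785901-18786000 of Meis1 and -1.16 ± 0.473 at chr4:114729401-114729500 of Tal1. None passed the test (limma adjusted p from 0.217 to 1).

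A single tile passed the p threshold alone, by a small amount. At chr2:9798801-9798900 of Gata3 follicular DKO was at 4, 3.41 and 4.41%, follicular WT at 0, 0.714 and 0%, and all 6 follicular Tet2KO and Tet3KO libraries at 0%. The difference of 3.70 ± 0.408 points (limma adjusted p = 0.000336) was below the 20 points needed for a call. Pro-B libraries were at 0% but for library 1 at 1.10% and library 11 at 1.83%, and the change of the stage difference, 3.46 ± 0.577 points, passed the same p threshold (limma adjusted p = 0.0383).

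Means over whole loci separated some knockouts from WT by small amounts. At Runx1 follicular WT was at 20.7, 19 and 20.2% and all 9 follicular knockout libraries at 21.4 to 24.7%, without overlap. The differences were 2.13 ± 0.717 points in Tet2KO, 3.21 ± 0.645 in Tet3KO and 3.27 ± 0.900 in DKO. At Cebpa follicular WT was at 5.36, 4.93 and 4.82% and the follicular knockout libraries at 5.74 to 7.03%, with differences of 1.35 ± 0.364, 1.14 ± 0.194 and 1.43 ± 0.405 points. An exact two-sided permutation test gave p = 0.1, the smallest possible, for each of these differences, and 0.364 adjusted over 80. The 3 comparisons at a locus share the WT libraries. Centring the libraries left all 6 differences above 0, with 1.96 points for Runx1 and 0.124 for Cebpa in DKO. Over all tested tiles, averaged where a value was present, the Runx1 differences were 1.08, 1.85 and 3.9 points, while those of Cebpa turned to -0.505, -1.26 and -0.327. The Cebpa set held 1 tile at 20% or more, chr7:35922301-35922400, at which the follicular knockouts differed from WT by 14.7, 14.3 and 12.4 points; none passed the test.

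Among the other loci, follicular DKO did not overlap with WT at Gata2, where WT was at 24, 24.1 and 23.1% and DKO at 28.4, 25.9 and 25.5% (difference 2.87 ± 0.955 points), nor at Gata3, where WT was at 5.36, 4.13 and 4.80% and DKO at 5.62, 5.50 and 5.73% (0.853 ± 0.363 points). The Gata3 difference turned to -0.454 points when libraries were centred. Centring subtracted the mean follicular DKO difference over all tested tiles, 1.31 points, while the median over those tiles was 0.106 points. In pro-B cells Meis1 was lower in DKO than in WT by 1.05 ± 0.246 points and Cebpa higher by 2.36 ± 0.897 points, both without overlap. Exact permutation p-values were 0.1 for these 4 differences as well. Both pro-B means include a tile with a far larger difference in the same direction. It was -46.2 points at chr11:18909601-18909700 of Meis1 and 25.9 points at chr7:35922301-35922400 of Cebpa. Over all tested tiles the pro-B DKO differences were -0.55 points at Meis1 and 4.48 at Cebpa. With libraries centred they were -2.43 and 0.986 points.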

How the data were processed

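RRBS libraries of 24 samples were analysed; 16 RNA samples were not analysed here. The authors deposited methylation levels as fractions from 0 to 1 per 100 bp tile, per the file headers, and the submitters' processing notes name Trim Galore, methylKit and the builds mm9 and hg19. The aligner, the conversion rate and any minimum of reads per tile are not given in the sources used here. Tile positions ran to 197193600 on chromosome 1, which is within that chromosome in mm9 and past its end in GRCm38. Fractions were multiplied by 100. Tiles with a value in at least 2 of 3 libraries of each of the 8 groups were fitted in R 4.3.3 with limma 3.58.1 (trended prior, 16 residual degrees of freedom at most) and data.table (1.17.8), with the group as the only factor, and p-values were adjusted by Benjamini-Hochberg over 200813 autosomal tiles. SE values of tiles and regions are limma's. Tested tiles within 500 bp were joined into regions, whose library means were fitted in the same way. A region mean used whichever tiles had a value in that library, so libraries, and library 8 most, can rest on different tiles. Means over a locus used tiles with a value in 23 libraries, library 8 left out, with exact permutation tests over libraries. The scripts were tested on simulated data. Missing levels were not imputed. Tiles named are those called and, per locus, the largest follicular DKO difference among tiles without overlap. The largest WT stage differences among such tiles are named for Meis1, Gata2, Gata3 and Runx1 only. Joined regions with the largest follicular DKO difference were picked per locus, but not all are described. A few other tiles and regions were chosen after their values were seen. The loci, windows and comparisons were chosen with earlier results of these data known. Alternatives changed the scale, scaling, tile set, threshold, covariates, blocks and libraries. Labels that match in genotype, sex and age across stages do not state a pairing, and deviations of WT libraries 1 and 13, 2 and 14, and 3 and 15 correlated at 0.00956, 0.00336 and 0.0291 over 159011 tiles, so they were not paired. Without an mm9 annotation tiles were not placed in exons, introns or UTRs.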

Additional observations from a re-analysis of the deposited data

Results flagged for a closer look

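Runx1 locus means (28 tiles) moved in opposite directions in different groups, with no overlap between the 3 libraries compared on each side. They were picked for this trait, so the opposite directions and the lack of overlap are not a test result. Tet2KO against WT differed by 2.13 points in follicular cells, where Tet2KO was at 23.1, 21.8 and 21.4% and WT at 20.7, 19 and 20.2%, and by -2.95 points in pro-B cells, where Tet2KO was at 20, 19.9 and 19.7% and WT at 23, 21.8 and 23.7%. Follicular against pro-B cells accordingly differed by -2.87 points in WT and by 2.21 points in Tet2KO. These differences share libraries, and the difference between them was not tested. An exact two-sided permutation test gave p = 0.1 for each of these differences, the smallest p possible for these group sizes. After adjustment over all locus means compared it was 0.364 for each. All Tet2KO libraries were from females, and 1 of the 3 WT libraries in each stage. Over all tested tiles, averaged where a value was present, the pro-B difference turned to 0.463 points and the WT stage difference to 0.701 points. The part of sex in these differences was not tested.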

How the results depend on the processing

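In follicular DKO and follicular Tet2KO against WT 0 member tiles were called in every alternative run. The 4 tiles called between stages over all genotypes kept their call when any of 24 libraries was left out; a threshold of 30 points left 1 of them and 10 points gave 11 tiles. In the sets of tiles with a value in 24 libraries and in 23 libraries 0 and 1 were called, since the other called tiles were not in the set, and in a wider tile set, chosen after seeing the data, 12. The WT stage call became 0 at 30 points, with libraries centred, in both smaller tile sets and with only the groups compared, and 3 in the wider set. For Tet3KO between stages the count was 2 on logit levels, 5 with libraries centred, and 0 in the 23-library set and with only the groups compared; for DKO between stages it was 2, on logit levels, 1 in the 23-library set and 1 in the wider set. On logit levels pro-B DKO and pro-B Tet3KO against WT each gave 1 tile, and pro-B Tet3KO gave 1 with libraries centred. DKO over both stages gave 2 with libraries centred, 1 with sex as a covariate and 6 in the wider set, and pro-B Tet2KO 1 in the wider set. Leaving out 1 library gave 0 to 3 tiles for WT and for Tet3KO between stages, 0 to 2 for pro-B DKO, pro-B Tet3KO, DKO between stages, DKO over both stages and the interaction, and 0 to 1 for pro-B Tet2KO, follicular Tet3KO and Tet2KO between stages. With a replicate block of sex and age strata the WT stage count was 0 and follicular Tet3KO 1, and with strata of genotype, sex and age the WT stage count was 0; the block changed no other count by over 1.5 times. Region calls were 1 for WT between stages when joined within 200 bp and 0 for Tet3KO between stages with tile means removed. Leaving out 1 library gave 0 to 2 regions for pro-B DKO and for Tet3KO and DKO between stages, and 0 to 1 for DKO over both stages, Tet2KO between stages and the interaction. Apart from changed tile sets the cause was not tested. Counts under the alternatives are given here without the share over all tiles, so they were not set against a background. No result changed sign past its threshold. Of the alternative values of locus means 134 moved by more than the spread between libraries and 550 did not. Most of these values came from runs with 1 library left out. Among the values over all tested tiles or with libraries centred, the majority moved, so locus means depended on these choices. Fitting only the groups compared was not run for the stage difference over all genotypes, which uses all groups. Depth is unknown, which limits levels of single tiles most.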

Other observations

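Tiles with a value in at least 1 library of every group, a set chosen after the data had been seen, held further stage differences beside those of the report. At Meis1 the 2 tiles just before the called one were also higher in follicular cells: chr11:18907601-18907700 by 41.2 ± 8.58 points (SE; limma adjusted p = 0.0127) and chr11:18907701-18907800 by 42.9 ± 7.91 points (limma adjusted p = 0.00566). At Runx1 the 2 tiles after the called one were also lower: chr16:92696101-92696200 by -31.4 ± 5.52 points (limma adjusted p = 0.00502) and chr16:92696201-92696300 by -25.0 ± 5.17 points (limma adjusted p = 0.0162). In the former, 7 of 8 pro-B libraries were listed at 100% and the follicular libraries at 50 to 100%. Elsewhere in the Runx1 window chr16:92622001-92622100 was higher in follicular cells, by 48.6 ± 7.95 points (limma adjusted p = 0.018), with 6 pro-B libraries at 0 to 59.1% and 8 follicular libraries at 53.3 to 92.3%.

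Spi1 had a tile of this set that was higher in follicular cells, chr2:90919301-90919400, by 40.5 ± 9.12 points (limma adjusted p = 0.034). Of 7 pro-B libraries 5 were listed at 0% and the others at 39.3 and 53.3%, while 10 follicular libraries ran from 30.8 to 79.2%. At Cebpa chr7:35914101-35914200 was lower in follicular cells by -25.5 ± 5.62 points (limma adjusted p = 0.037), with 9 pro-B libraries at 63.3 to 100% and 7 follicular libraries at 50 to 92.9%.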
